A study of Bos taurus with 24 samples.

Results

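Subcutaneous fat of 6 High Gain and 6 Low Gain cows was compared at ad libitum feeding, with 1 array per cow, which is 12 of the 24 arrays of the series. All arrays labelled as the second adipose biopsy were taken, and no measured value entered that choice. The cows were crossbred, non-pregnant and 5 years old, and came from 121 cows that had first been held on a restricted ration of 120 kcal of metabolizable energy per kg of metabolic body weight. The 6 highest and the 6 lowest gaining cows were then picked by their weight gain at ad libitum feeding of the same ration. High Gain cows also ate more over that period and the breed make-up of the groups was not identical, so that gain, intake and breed cannot be told apart here. The ad libitum biopsy was taken at day 49 of that period, from the right side between hooks and pins, and the restriction biopsy of the same cows at day 105 of restriction, from the left side. The other 12 arrays, from the restriction biopsy, show whether a difference was already there, and enter the test of its change between the biopsies and the fits in which all 24 arrays share 1 estimate of the spread.

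White fat stores triglyceride in large adipocytes, which do not divide and are supplied by a dense bed of capillaries. Around them lie progenitor cells that can divide and become adipocytes, fibroblasts that lay down collagen, and resident macrophages. Growth of a fat depot can come from larger adipocytes or from more of them, and the vessels and the matrix around the cells are rebuilt as it grows. In biopsies of whole tissue, fewer cells of a type and less RNA per cell cannot be told apart.

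Each transcript cluster, a set of probes for 1 gene or predicted gene, has a log2 signal, and all differences are High Gain minus Low Gain on the log2 scale. The value in a cow is called by the cow, H1 to H6 in High Gain and L1 to L6 in Low Gain. The array medians were alike, at 7.84 to 7.94 in High Gain and 7.83 to 7.88 in Low Gain cows, and arrays within a group correlated at 0.977 to 0.986. The median difference of the 24997 clusters tested was 0.01. Fat identity was clear on all arrays. The 18 markers of mature adipocytes averaged 15.48 to 16.17 in High Gain and 15.82 to 16.25 in Low Gain cows. Traces of other tissues were uneven, since the mean of 6 erythroid genes was 8.85 in L5 against 6.89 to 7.66 in the other Low Gain cows and 6.91 to 7.41 in High Gain cows. The mean of 13 skeletal muscle genes was 8.38 in H3 and 7.87 in L2, and 6.60 to 7.20 in the other cows. The mean of 5 Schwann cell genes was 9.28 in H1 and 7.99 to 8.32 in the other cows, and that of 6 B and plasma cell genes was 8.53 in H5 and 7.21 to 7.67 in the other cows.

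No single cluster passed the test across the whole array. By limma, 0 of 24997 clusters had an adjusted p under 0.05, and the smallest adjusted p was 0.207. The unmoderated one-way test also passed 0. At an unadjusted p under 0.05 there were 1777 clusters, or 7.11%, of which 854 (3.42%) were higher and 923 (3.69%) lower in High Gain. A fold over 2 as well left 75 clusters (0.3%), 44 higher (0.176%) and 31 lower (0.124%). The 6 High Gain values all lay above the 6 Low Gain values in 54 clusters (0.216%) and all below in 41 (0.164%). These shares are the background against which the counts of each gene group are given. With no call over the array, every gene below is described by its values, and "higher" or "lower" is used of values and not of a passed test.

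Genes of dividing cells had higher values in High Gain cows. Of 60 measured genes of mitosis and the cell cycle, 57 were higher in High Gain by value, against 52.9% of all clusters. Of the 60, 32 were higher at an unadjusted p under 0.05 and 0 were lower, against backgrounds of 3.42% and 3.69%. The median difference of the list was 0.39, against 0.01 for all clusters, and its members ran between -0.16 and 1.28. In 7 of the 60 the groups did not overlap, where 0.216% of all clusters did so in this direction. The smallest adjusted p in the list was 0.331.

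MKI67, the Ki-67 protein of cycling cells, had a lowest, median and highest signal of 8.36, 8.52 and 9.56 in High Gain cows, against 7.08, 7.37 and 8.45 in Low Gain cows. H1 and H6 were highest, and among Low Gain cows only L2 reached the range of the High Gain cows. The difference was 1.25 (standard error 0.26, n = 6 cows each, limma adjusted p = 0.331).

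CDKN3, a phosphatase that acts on cyclin-dependent kinases, ran at 6.72, 7.13 and 8.12 in High Gain and at 5.92, 6.07 and 6.48 in Low Gain cows. The groups did not overlap, and H1 stood highest. The difference was 1.04 (standard error 0.21, limma adjusted p = 0.331).

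CCNA2, the cyclin of S phase and entry into mitosis, gave 7.65, 8.50 and 9.46 in High Gain against 6.68, 7.43 and 7.84 in Low Gain cows. H4 was the only High Gain cow within the Low Gain range. Its difference was 1.23 (standard error 0.28, limma adjusted p = 0.41). TOP2A, the topoisomerase that untangles replicated chromosomes, gave 7.06, 7.999 and 8.99 in High Gain against 5.97, 6.60 and 7.28 in Low Gain cows, with H4 and H5 below L2. Its difference of 1.28 was the highest of the list (standard error 0.32, limma adjusted p = 0.437).

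KIF20A, a motor of the central spindle in late mitosis, gave 7.59, 8.42 and 9.31 in High Gain and 7.01, 7.34 and 7.49 in Low Gain cows. DLGAP5, a spindle assembly protein, gave 7.12, 7.28 and 7.77 in High Gain and 6.25, 6.61 and 7.05 in Low Gain cows. Neither gene had overlapping groups. The differences were 1.12 (standard error 0.27, limma adjusted p = 0.42) for KIF20A and 0.77 (standard error 0.16, limma adjusted p = 0.331) for DLGAP5. The other members without overlap, named after their values were seen, were PRC1, which bundles spindle microtubules, NUF2, of the kinetochore, CENPA, the histone variant of centromeres, and the spindle motor KIF11. Their differences were 0.77, 0.75, 0.96 and 0.85.

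**Figure D1:**
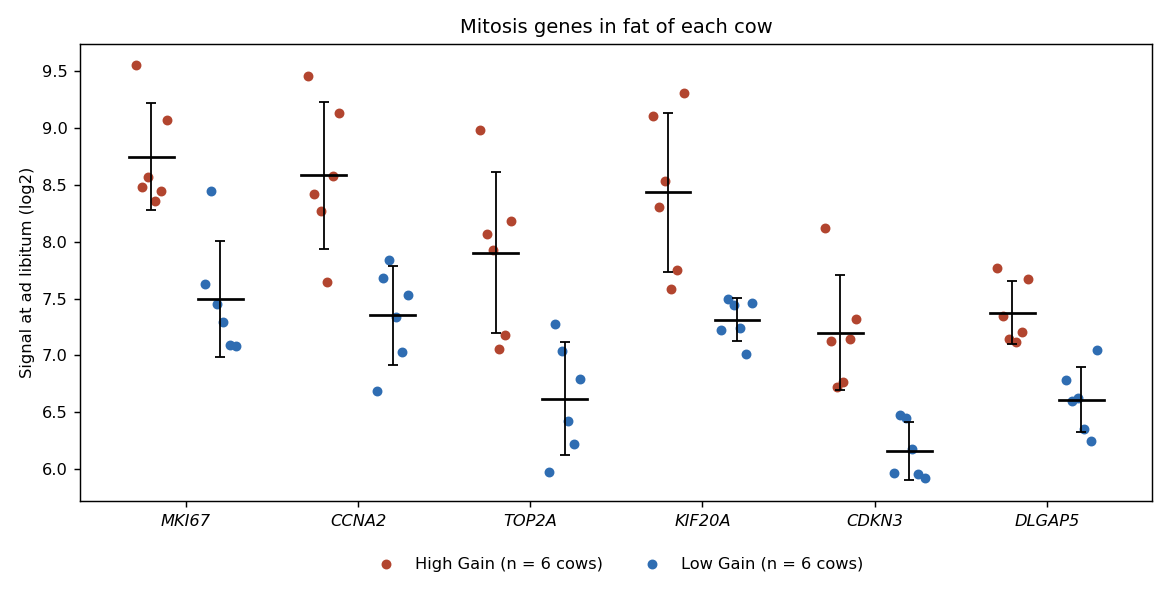
Log2 signal at ad libitum feeding of 6 mitosis genes, with 1 point per cow, the mean as a line and the SD as a bar (High Gain red, Low Gain blue, n = 6 cows each). The High Gain points stand higher for every gene shown, with means of 8.75 in High Gain against 7.497 in Low Gain cows for MKI67, and the groups do not overlap for CDKN3, KIF20A and DLGAP5.

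The mitosis genes did not separate the same cows at restriction. The list had a median difference of 0.39 at ad libitum and of -0.02 at restriction, where 2 of 60 were higher and 3 lower at an unadjusted p under 0.05 (backgrounds 4.3% and 4.87%). MKI67 had a difference of 1.25 at ad libitum and of 0.06 (standard error 0.21) at restriction. The change of the gain difference, ad libitum minus restriction, was tested for each cluster over all 24 arrays with the cow as a block. It was positive at an unadjusted p under 0.05 in 25 of the 60 genes and negative in 0, against backgrounds of 5.25% and 4.2%. The smallest adjusted p of that change within the list was 0.247, so no member passed over the array.

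Within the High Gain group the mitosis genes were not even. The mean signal over the 60 genes was 8.22 in H1 and 8.002 in H6, 7.496 to 7.66 in the other High Gain cows, and 7.12 to 7.43 in Low Gain cows. The groups therefore did not overlap on this mean, by a gap between H4 and L3. H1 was also the cow with the high mean of Schwann cell genes, 9.28, whose part in this result was not tested. Without H1, 23 of the 60 genes were higher at an unadjusted p under 0.05, without H6 there were 22, and without H4 there were 36. Many of these genes were dim, since 19 of the 60 lay in the brighter part of the array when it was split at the median. Of those 19, 10 were higher at an unadjusted p under 0.05.

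Markers of the cells that might divide moved with the mitosis genes only in part. The mean of 16 macrophage markers ran from 8.97 to 10.79 in High Gain and from 8.65 to 9.45 in Low Gain cows, and H5, the highest of them, had the second lowest mitosis mean of its group, 7.54. The mean of 15 progenitor markers ran from 10.96 to 11.82 in High Gain and from 10.86 to 11.76 in Low Gain cows, with H6 at 11.82 and H1 at 11.81. The mean of 15 T and NK cell markers ran from 6.90 to 7.70 in High Gain and from 6.95 to 7.35 in Low Gain cows. No marker has a true 0 on this scale. Which cells carried the mitosis transcripts was not tested.

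Genes of DNA replication were closer together than those of mitosis. Of 43 measured, 6 were higher and 1 lower at an unadjusted p under 0.05 (backgrounds 3.42% and 3.69%), and the median difference was 0.10. RRM2, the regulated subunit of ribonucleotide reductase, had 0.67, UHRF1, which carries DNA methylation through replication, 0.51, and MCM2, of the replicative helicase, 0.36. The 1 gene lower in value at that p was GINS3, a helicase partner, at -0.27.

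Core histone genes, whose transcripts build up in S phase, also had higher values in High Gain cows. Of 20 genes with a cluster of their own, 5 were higher at an unadjusted p under 0.05 and 0 lower (backgrounds 3.42% and 3.69%). Their median was 0.25 at ad libitum and -0.11 at restriction. Of the 44 clusters higher at an unadjusted p under 0.05 with a fold over 2, 10 belonged to core histones. How many core histone clusters were tested in all was not counted, so no share can be set beside the 10. Most of these 10 are assigned to several near-identical genes at once, and 2 that are assigned to H3C13 and H3C14 held identical values, so that they are not independent and single copies cannot be resolved.

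The cluster shared by H2BC6, H2BC21, H2BC19 and other H2B genes had the smallest p of all clusters with a fold over 2. Its signal was 10.04, 10.87 and 11.53 (lowest, median and highest) in High Gain cows, against 8.72, 9.15 and 9.71 in Low Gain cows. The groups did not overlap, with H2 and H1 at the top and L1 at the bottom. The difference was 1.62, a fold of 3.07 (standard error 0.25, limma adjusted p = 0.207), and at restriction it was -0.03 (standard error 0.23). When all 24 arrays shared 1 estimate of the spread, the limma adjusted p of this cluster was 0.0255.

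H2AC13, an H2A gene, gave 14.59, 15.09 and 16.13 in High Gain and 13.45, 14.04 and 14.75 in Low Gain cows, with L2 above H3 and H4. H2BC3 gave 5.33, 5.97 and 6.71 in High Gain and 4.84, 4.96 and 5.49 in Low Gain cows, with L5 far above the rest of its group. The differences were 1.16 for H2AC13 (standard error 0.29, limma adjusted p = 0.437) and 0.93 for H2BC3 (standard error 0.19, limma adjusted p = 0.331). H2BC19 had 0.82 at ad libitum and -0.48 at restriction.

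**Figure D2:**
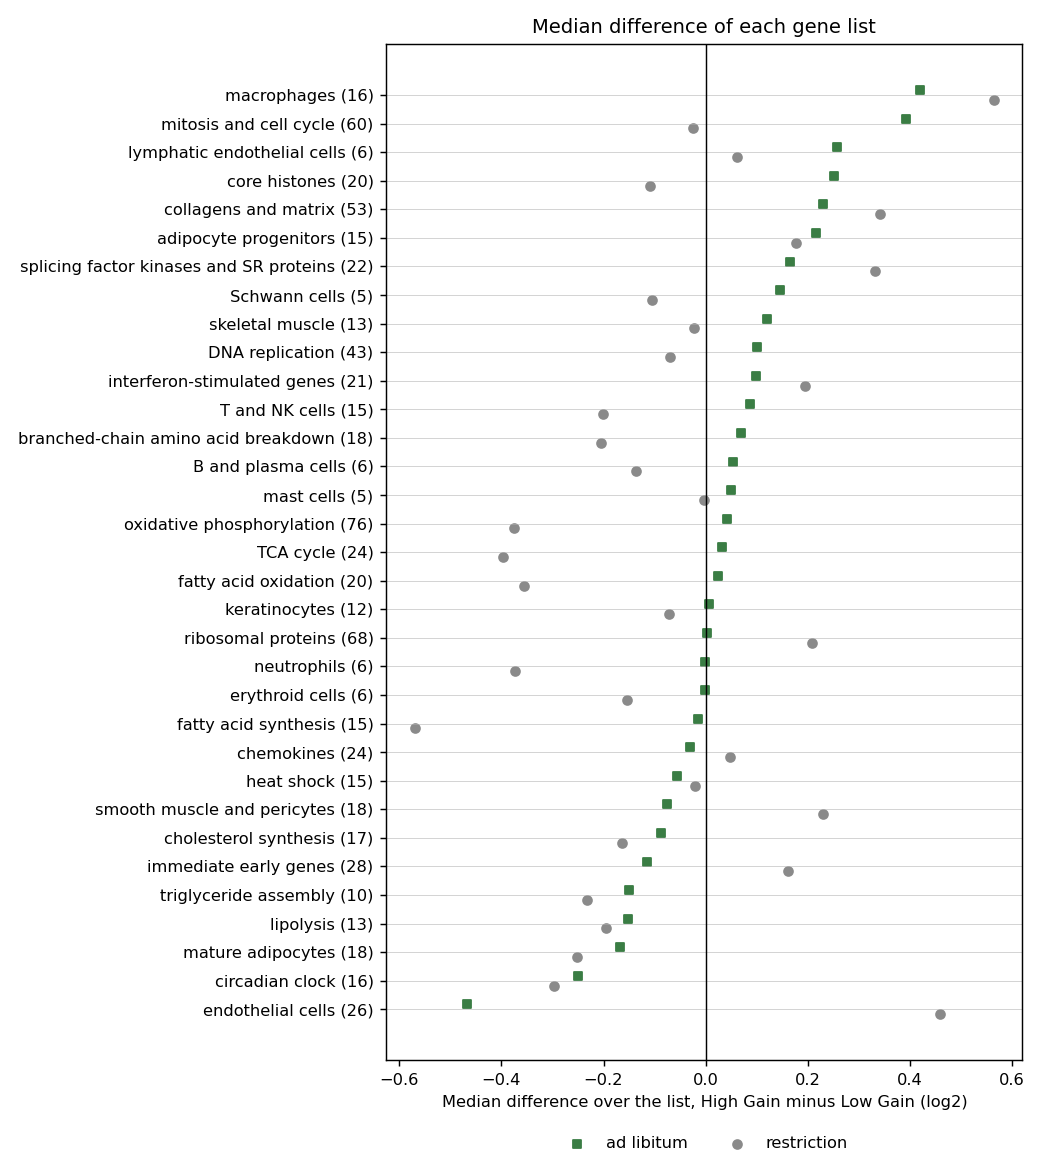
Median log2 difference, High Gain minus Low Gain, over the genes of each of 33 lists, with the number of genes in brackets (green squares ad libitum, grey circles restriction; no error is drawn, since genes of a list are not replicates). Endothelial markers lie at -0.47 at ad libitum and 0.46 at restriction, and mitosis genes at 0.39 at ad libitum and -0.02 at restriction.

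Collagens and other matrix proteins had higher values in High Gain cows, but the groups overlapped from both sides. The mean over the list was 13.72 in L3, above every High Gain cow. In H4 it was 12.54, below L2, L3, L4 and L6. Of 53 genes, 11 were higher and 3 lower at an unadjusted p under 0.05, against backgrounds of 3.42% and 3.69%, and 8 of the 11 also had a fold over 2. The median difference was 0.23. In none of the 53 were the groups free of overlap. Without L3 there were 16 genes higher, and without H1 or without H5 there were 7. The median was 0.09 without H1 and 0.38 without L3.

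The fibrillar collagen chains COL1A1, COL1A2 and COL3A1 form the bulk of the fibres in connective tissue. COL1A1 had 16.31, 17.84 and 18.87 in High Gain against 13.53, 16.15 and 18.34 in Low Gain cows. L3 lay at 18.34, within the upper part of the High Gain range, and L1 at 13.53, far below all other cows. H4, at 16.31, lay below L2, L3 and L5. The difference was 1.85, a fold of 3.6, with a standard error of 0.68 (limma adjusted p = 0.614).

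COL1A2 had 15.76, 17.42 and 18.58 in High Gain against 13.47, 15.64 and 17.84 in Low Gain cows, again with L3 highest and L1 lowest of its group. H4 lay below L3 and L5. COL3A1 had 17.24, 18.26 and 19.18 in High Gain against 16.57, 16.98 and 18.63 in Low Gain cows, and all High Gain cows exceeded the Low Gain cows other than L3. The differences were 1.79 (standard error 0.62, limma adjusted p = 0.606) for COL1A2 and 1.11 (standard error 0.36, limma adjusted p = 0.582) for COL3A1.

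MFAP5, a glycoprotein of elastic microfibrils, had 14.22, 15.67 and 16.77 in High Gain against 13.84, 14.50 and 15.49 in Low Gain cows. H4 lay within the Low Gain range, and L4 above H2, H3 and H4. Its difference was 1.18 at ad libitum and 1.00 at restriction. Further members with a fold over 2 were POSTN, the matricellular protein periostin, at 1.64, COL14A1, a fibril-associated collagen, at 1.20, and the small proteoglycans OGN at 1.20 and ASPN at 1.19. In the other direction, COL5A3, a minor type V collagen chain, had 9.97, 10.19 and 10.57 in High Gain against 10.53, 10.75 and 11.36 in Low Gain cows. Its difference was -0.60 (standard error 0.15, limma adjusted p = 0.462), and H1 alone reached the Low Gain range. PRELP, a proteoglycan, and COL15A1, a basement membrane collagen, were also lower in value, at -0.52 and -0.38.

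**Figure D3:**
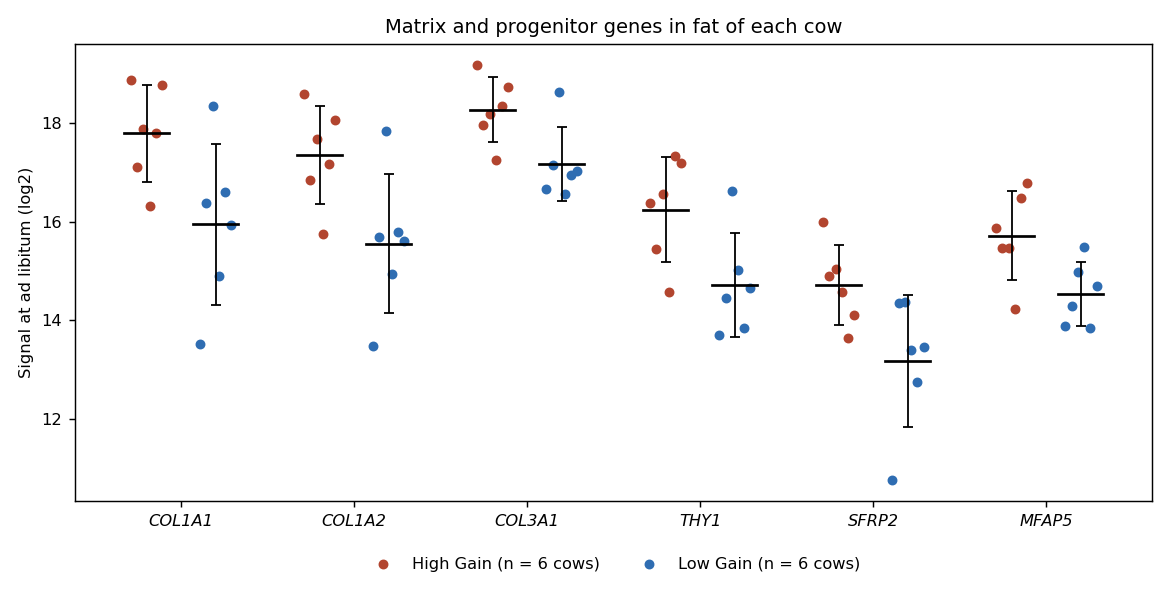
Log2 signal at ad libitum feeding of 6 matrix and progenitor genes, with 1 point per cow, the mean as a line and the SD as a bar (High Gain red, Low Gain blue, n = 6 cows each). The group ranges overlap for every gene shown, with 1 Low Gain cow, L3, at 18.34 for COL1A1 and at 18.63 for COL3A1. H4, a High Gain cow, lies at 16.31 for COL1A1, below L2, L3 and L5.

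Progenitor markers leaned the same way as the collagens. Of 15 genes, 10 were higher and 5 lower by value, where 52.9% of all clusters were higher. At an unadjusted p under 0.05, 4 were higher and 0 lower (backgrounds 3.42% and 3.69%). The median was 0.22, which was 0.39 without L3. THY1, a surface protein of stromal cells, had 14.58, 16.46 and 17.33 in High Gain against 13.71, 14.55 and 16.62 in Low Gain cows. L3 again lay within the High Gain range, and H4 below L3, L4 and L6. SFRP2, a secreted modulator of Wnt signals, had 13.65, 14.74 and 16.00 in High Gain against 10.76, 13.42 and 14.37 in Low Gain cows, where L1 was lowest. The differences were 1.53 (standard error 0.54, limma adjusted p = 0.609) and 1.54 (standard error 0.56, limma adjusted p = 0.614).

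PI16, a marker of early progenitors in mouse and human fat, was tighter than these. It had 9.69, 9.86 and 10.05 in High Gain against 8.67, 9.33 and 9.70 in Low Gain cows, and only L6 reached the lowest High Gain cow. The difference was 0.58 (standard error 0.15, limma adjusted p = 0.491), against 0.03 (standard error 0.33) at restriction. PDGFRA, the receptor that defines these cells, had a difference of 0.74 (standard error 0.33). DPP4, another progenitor marker, had 0.22 (standard error 0.23).

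For matrix genes the gain groups also differed in value at restriction. The matrix list had a median of 0.23 at ad libitum and of 0.34 at restriction, where 11 genes were higher and 2 lower at an unadjusted p under 0.05 (backgrounds 4.3% and 4.87%). The change of the gain difference between the biopsies was positive at that p in 2 of the 53 genes and negative in 2. COL1A1 had a difference of 1.85 at ad libitum and of 0.90 (standard error 0.70) at restriction, and the change between them, 0.95, had a standard error of 0.96.

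Endothelial markers ran the other way, with lower values in High Gain cows at ad libitum feeding. Of 26 genes, 21 were lower by value, 10 were lower and 0 higher at an unadjusted p under 0.05 (backgrounds 3.69% and 3.42%), and the median difference was -0.47. In 2 of the 26, ENG and ACKR1, the High Gain values all lay below the Low Gain values, where 0.164% of all clusters did so.

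ENG, endoglin, a co-receptor for TGF-beta family ligands on endothelial cells, had 14.45, 14.65 and 14.86 in High Gain cows, against 15.00, 15.62 and 16.19 in Low Gain cows. The High Gain cows were close together and the Low Gain cows spread widely above them, with L6 highest. The difference was -0.90 (standard error 0.18, limma adjusted p = 0.331).

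ACKR1, a chemokine-binding receptor of venules, had 8.12, 8.26 and 8.67 in High Gain cows, against 8.93, 9.71 and 11.53 in Low Gain cows. The groups did not overlap, and L1 was highest. The difference was -1.54, 2.9-fold lower in High Gain (standard error 0.36, limma adjusted p = 0.419).

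VWF, the clotting protein stored in endothelial cells, had 9.96, 10.27 and 11.001 in High Gain cows, against 10.35, 11.66 and 12.26 in Low Gain cows. L3 and L6 lay among the High Gain cows, and the other 4 Low Gain cows above all of them. The difference was -1.01 (standard error 0.31, limma adjusted p = 0.572). EGFL7, a secreted angiogenic factor of these cells, had -0.48, and S1PR1, a receptor for sphingosine 1-phosphate, -0.85.

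Not all defining markers took part. PECAM1, an adhesion protein of all endothelial cells, had 14.46, 15.06 and 16.00 in High Gain and 14.44, 15.08 and 15.92 in Low Gain cows. The groups overlapped throughout, with a difference of -0.05 (95% interval -0.64 to 0.53). CDH5, the cadherin of endothelial junctions, had a difference of -0.33 (standard error 0.18). The 6 lymphatic markers had a median of 0.26, with 0 past an unadjusted p of 0.05.

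At restriction the endothelial list had the opposite sign. The median was -0.47 at ad libitum and 0.46 at restriction, where 11 of 26 were higher at an unadjusted p under 0.05 and 0 lower (backgrounds 4.3% and 4.87%). The change of the gain difference was negative at that p in 17 of the 26 and positive in 0, where 4.2% of all clusters were negative. ENG had -0.90 at ad libitum and 0.77 (standard error 0.32) at restriction, a change of -1.66 (standard error 0.36, limma adjusted p = 0.182). PECAM1 had -0.05 at ad libitum and 0.85 (standard error 0.22) at restriction.

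The mean of the 26 markers showed how the cows moved. At ad libitum it was 10.09 to 10.41 in High Gain and 10.42 to 11.07 in Low Gain cows, with H2 and L3 side by side at the border. At restriction it was 10.73 to 11.88 in High Gain and 10.52 to 11.18 in Low Gain cows, where the groups overlapped. L5, the cow with the high erythroid mean, had an endothelial mean of 10.71 at ad libitum, and without it 9 markers were lower at an unadjusted p under 0.05.

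Over the whole array, 2 clusters (0.008%) passed an adjusted p under 0.05 for the change of the gain difference, and both had a lower value in High Gain cows at ad libitum and a higher one at restriction. JAM2, a junctional adhesion molecule of endothelial cells, had 12.70, 13.15 and 13.71 in High Gain against 13.54, 13.76 and 14.29 in Low Gain cows at ad libitum. H5 was the 1 High Gain cow within the Low Gain range. At restriction it had 13.91, 14.18 and 14.73 in High Gain against 12.74, 13.43 and 13.72 in Low Gain cows, and the groups did not overlap. The gain difference was -0.64 at ad libitum and 0.85 at restriction, and it changed by -1.49 (standard error 0.24, limma adjusted p = 0.036). Without the cow as a block, 0 clusters passed for this change.

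The other was MIR145, the gene of a microRNA known from vascular smooth muscle. The array reads this locus by its own cluster, and which form of the transcript it detects is not given in the sources used here. At ad libitum it had 9.42, 10.01 and 10.45 in High Gain against 10.85, 11.27 and 11.93 in Low Gain cows, with no overlap. At restriction it had 11.10, 11.70 and 12.82 in High Gain against 9.54, 10.37 and 11.93 in Low Gain cows, where L1 alone lay within the High Gain range. The gain difference was -1.39 (standard error 0.24, limma adjusted p = 0.331) at ad libitum and 1.33 (standard error 0.36) at restriction, and it changed by -2.72 (standard error 0.44, limma adjusted p = 0.036).

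MIR143, which lies in the same microRNA cluster in mammals, had -0.43 (standard error 0.24) at ad libitum and 0.63 (standard error 0.27) at restriction. The change was -1.06 (standard error 0.36, limma adjusted p = 0.371). The list of 18 smooth muscle and pericyte genes, which holds both microRNAs, had a median of -0.08, and MIR145 was the 1 member lower at an unadjusted p under 0.05.

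**Figure D4:**
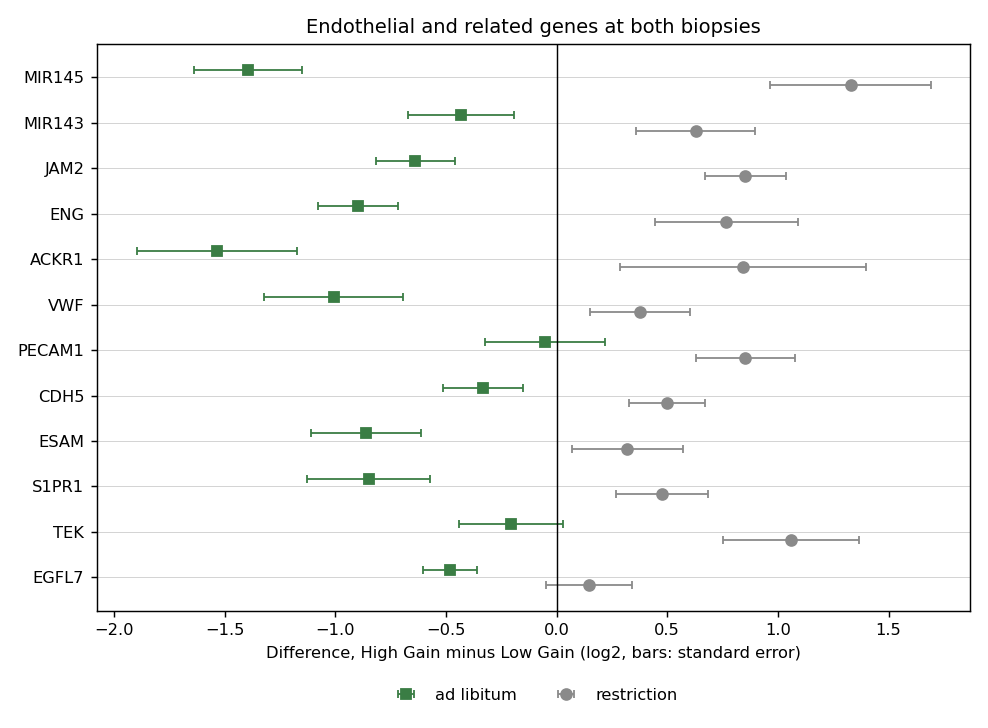
Log2 difference, High Gain minus Low Gain, of 12 genes at ad libitum (green squares) and at restriction (grey circles) from limma, with bars of 1 standard error (n = 6 cows in each group). Every gene shown lies lower at ad libitum than at restriction, as for MIR145 with -1.39 at ad libitum and 1.33 at restriction. The genes were picked by hand, some after their values were seen, so their shared direction follows in part from that choice. Of all 26 endothelial markers, 17 had a negative change at an unadjusted p under 0.05.

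Further genes with lower values in High Gain cows came from different lists or from none. QPCT, the enzyme that forms N-terminal pyroglutamate, had 9.71, 10.04 and 10.26 in High Gain against 11.003, 11.75 and 13.82 in Low Gain cows. The groups did not overlap, and the spread lay almost wholly in the Low Gain group, with L1 and L4 highest. The difference was -2.10, 4.29-fold lower in High Gain (standard error 0.43, limma adjusted p = 0.331), and at restriction it was -1.43 (standard error 0.45).

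MDGA2, a membrane protein studied mainly at synapses, had 6.96, 7.14 and 7.77 in High Gain against 7.53, 9.49 and 10.77 in Low Gain cows. Among the Low Gain cows only L5 fell into the High Gain range. The difference was -2.04 (standard error 0.41, limma adjusted p = 0.331) at ad libitum and -2.66 (standard error 0.37, limma adjusted p = 0.0675) at restriction.

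HSPA12A, a distant relative of the Hsp70 chaperones, had 9.58, 10.69 and 11.73 in High Gain against 11.61, 11.99 and 13.89 in Low Gain cows, with H4 above L3 and L6. XPNPEP2, a membrane aminopeptidase, had 9.40, 10.30 and 10.87 in High Gain against 10.54, 11.64 and 12.49 in Low Gain cows, with H4 and H6 above L3. The differences were -1.67 (standard error 0.42, limma adjusted p = 0.462) and -1.34 (standard error 0.33, limma adjusted p = 0.437). At restriction they were -1.09 for HSPA12A and -0.74 for XPNPEP2.

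CERS2, which makes ceramides with very long acyl chains, had 12.76, 13.12 and 13.54 in High Gain against 13.53, 14.36 and 15.11 in Low Gain cows. NMNAT2, an enzyme of NAD synthesis, had 8.18, 8.42 and 9.24 in High Gain against 8.65, 9.67 and 10.13 in Low Gain cows. For CERS2 the ranges met at L3, the lowest Low Gain cow, which lay just below H6. For NMNAT2 they overlapped further, with H1 and H4 above L3 and below the other Low Gain cows. The differences were -1.08 (standard error 0.25, limma adjusted p = 0.41) and -1.02 (standard error 0.24, limma adjusted p = 0.42). At restriction they were -0.68 (standard error 0.40) for CERS2 and -0.67 (standard error 0.21) for NMNAT2.

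S100A11, a calcium-binding protein, had 15.36, 16.55 and 17.19 in High Gain against 17.11, 17.56 and 17.92 in Low Gain cows, and only H6 reached L5. Its difference was -1.16 (standard error 0.25, limma adjusted p = 0.377) at ad libitum and -0.09 (standard error 0.27) at restriction. CXCL3, a chemokine for neutrophils, had 6.88, 7.18 and 8.20 in High Gain against 7.31, 9.08 and 10.11 in Low Gain cows. Its difference was -1.65 (standard error 0.40, limma adjusted p = 0.42) at ad libitum and 0.47 (standard error 0.58) at restriction.

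Some clusters with a fold under 2 also had groups without overlap, and 3 of them were named after their values were seen. SCAP, the sterol sensor that escorts SREBP proteins to the Golgi, had 9.43, 9.70 and 10.01 in High Gain against 10.19, 10.59 and 10.78 in Low Gain cows. ENOX1, a cell surface oxidase, had 7.85, 8.21 and 8.41 in High Gain against 8.75, 8.99 and 9.26 in Low Gain cows. ADRA1A, an alpha-1 adrenergic receptor, had 7.89, 8.02 and 8.05 in High Gain against 8.39, 8.94 and 9.22 in Low Gain cows. None of these genes had overlapping groups.

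The differences at ad libitum were -0.83 for SCAP (standard error 0.13, limma adjusted p = 0.25), -0.82 for ENOX1 (standard error 0.12, limma adjusted p = 0.207) and -0.84 for ADRA1A (standard error 0.14, limma adjusted p = 0.328). With all 24 arrays sharing 1 estimate of the spread, SCAP had a limma adjusted p of 0.0255. At restriction the differences were -0.13, 0.03 and -0.02.

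**Figure D5:**
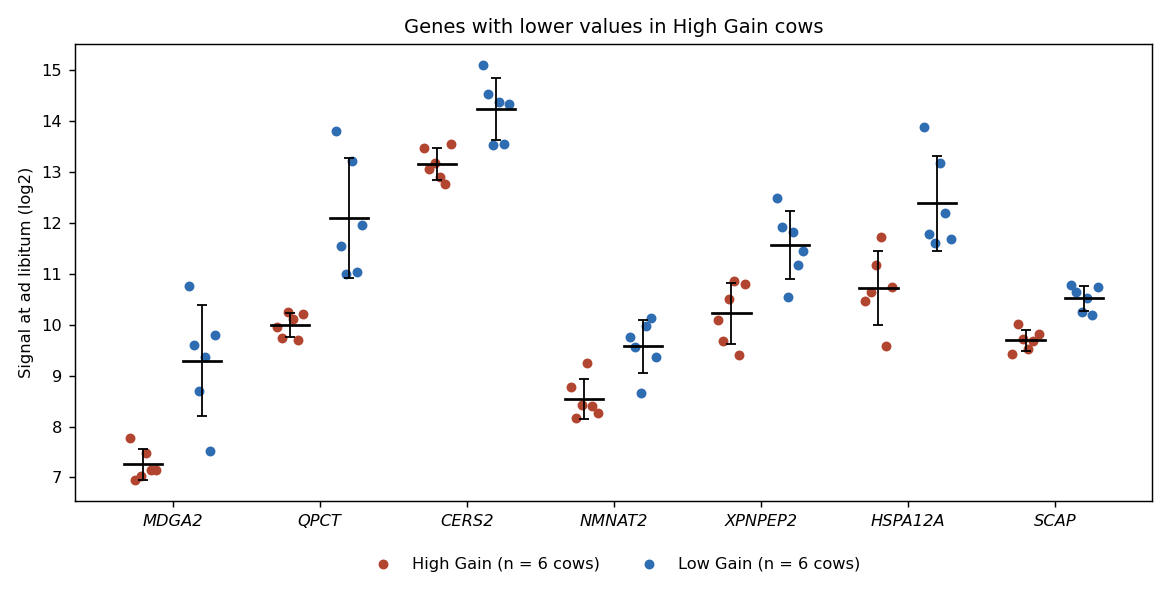
Log2 signal at ad libitum feeding of 7 genes with lower values in High Gain cows, with 1 point per cow, the mean as a line and the SD as a bar (High Gain red, Low Gain blue, n = 6 cows each). The groups do not overlap for QPCT and SCAP, and the Low Gain cows spread more widely than the High Gain cows for MDGA2 and QPCT.

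Higher values outside the groups above included 2 genes of RNA splicing. CLK1, a kinase that phosphorylates SR splicing proteins, had 12.81, 13.59 and 14.74 in High Gain against 12.01, 12.09 and 13.23 in Low Gain cows. H6 was the lowest High Gain cow, below L5 and L6, and the other 5 High Gain cows exceeded all Low Gain cows. The difference was 1.35 (standard error 0.31, limma adjusted p = 0.41) at ad libitum and 0.42 (standard error 0.52) at restriction. CLK4, a related kinase, had 0.72 (standard error 0.26) and RSRP1, an arginine and serine rich protein, 1.12 (standard error 0.35). The list of 22 splicing kinases and SR proteins had a median of 0.17, with 2 members higher and 0 lower at an unadjusted p under 0.05 (backgrounds 3.42% and 3.69%).

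F13A1, a coagulation factor subunit also made by tissue macrophages, had 10.14, 11.03 and 12.86 in High Gain against 8.82, 10.26 and 10.57 in Low Gain cows, where H5 and H6 stood well above the rest. Its difference was 1.44 (standard error 0.48, limma adjusted p = 0.592) at ad libitum and 0.89 (standard error 0.31) at restriction. CDO1, the enzyme that commits cysteine to taurine synthesis, had 1.00 (standard error 0.29, limma adjusted p = 0.525) at ad libitum and 0.67 (standard error 0.29) at restriction.

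Macrophage markers were higher by value in 16 of 16 genes, against 52.9% of all clusters, with a median of 0.42, which was 0.19 without H5, and none had an unadjusted p under 0.05. CD68, a lysosomal protein of macrophages, ran from 9.57 to 12.998 in High Gain and from 8.78 to 10.91 in Low Gain cows, with medians of 10.32 and 10.29. H5 and H6 alone exceeded the highest Low Gain cow. CD163, the haemoglobin scavenger receptor, had a difference of 0.45 (standard error 0.31). At restriction the list had a median of 0.56, with 7 members higher and 1 lower at an unadjusted p under 0.05 (backgrounds 4.3% and 4.87%).

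SPP1, osteopontin, which is known from lipid-laden macrophages, had the widest spread of the genes named, and was named after its values were seen. Its signal was 8.22, 12.31 and 17.86 in High Gain against 7.51, 8.40 and 11.81 in Low Gain cows. H3, H5 and H6 exceeded every Low Gain cow, while H1, H2 and H4 lay within the Low Gain range. The difference was 3.49 with a standard error of 1.46 (limma adjusted p = 0.671), and at restriction 3.41 with a standard error of 1.46.

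Markers of the mature adipocyte were mostly a little lower in High Gain cows. Of 18 genes, 16 were lower by value, where 52.9% of all clusters were higher by value. At an unadjusted p under 0.05, 2 were lower (background 3.69%). The median difference was -0.17 at ad libitum and -0.25 at restriction. LIPE, hormone-sensitive lipase, had 13.57, 14.36 and 14.90 in High Gain against 14.64, 15.18 and 15.96 in Low Gain cows. H2 and H4 lay above L3, the lowest Low Gain cow. The difference was -0.94 (standard error 0.26, limma adjusted p = 0.514). AQP7, the glycerol channel of adipocytes, had -0.47 (standard error 0.20).

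The fatty acid synthesis list had a median difference near 0 at ad libitum feeding. Of 15 genes, 2 were lower and 0 higher at an unadjusted p under 0.05, and the median was -0.02 at ad libitum, against -0.57 at restriction with 7 lower (background 4.87%). ACACA, acetyl-CoA carboxylase, had 18.07, 18.52 and 18.90 in High Gain and 18.08, 18.61 and 18.97 in Low Gain cows. The ranges were nearly the same, with a difference of -0.06 at ad libitum (95% interval -0.42 to 0.30) and of -1.20 (standard error 0.34) at restriction. FASN and SCD reached the upper end of the scale on most arrays at ad libitum, so that no difference can be read for them.

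ACLY, ATP citrate lyase, had the lowest difference of the list, -0.98, with a standard error of 0.55. The 2 members lower at an unadjusted p under 0.05 were regulators. SREBF1, the SREBP gene of lipogenesis, had 10.34, 10.84 and 11.52 in High Gain against 11.24, 11.64 and 12.35 in Low Gain cows, with H2 and H6 within the Low Gain range. Its difference was -0.80 (standard error 0.24, limma adjusted p = 0.531). MLXIPL, the carbohydrate-responsive factor ChREBP, had -0.68 (standard error 0.26) at ad libitum and -0.79 (standard error 0.16) at restriction.

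Mitochondrial genes were also close between the groups. Of 76 genes of oxidative phosphorylation, 0 had an unadjusted p under 0.05 at ad libitum, where 7.11% of all clusters did. Their differences ran between -0.68 and 0.32, so that single genes may still differ within their errors. The median was 0.04 at ad libitum and -0.38 at restriction, where 23 of 76 were lower at that p and 0 higher (background 4.87% lower). Of 24 TCA cycle genes, 3 were lower and 0 higher at that p at ad libitum (backgrounds 3.69% and 3.42%), with a median of 0.03. These were ACO1, a cytosolic aconitase, at -0.53, SDHC, of succinate dehydrogenase, at -0.55, and PC, pyruvate carboxylase, at -0.76. SDHC is also a subunit of the respiratory chain, but it was counted in the TCA cycle list and not among the 76 genes.

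The other lipid and amino acid lists had medians between -0.15 and 0.07. At an unadjusted p under 0.05 (backgrounds 3.42% higher and 3.69% lower), fatty acid oxidation had 1 of 20 lower, with a median of 0.02. Triglyceride assembly had 1 of 10 lower, with a median of -0.15. Its member GPAM lay near the end of the scale in every cow, at 19.47 to 19.89. Lipolysis had a median of -0.15 with 10 of 13 lower by value, and at that p 1 was higher and 1, LIPE, lower. Cholesterol synthesis had a median of -0.09 with 1 of 17 higher, HSD17B7, a late sterol enzyme, at 0.88. Branched-chain amino acid breakdown had a median of 0.07 with 1 of 18 higher, BCAT2, the mitochondrial transaminase of these amino acids, at 0.81. The 68 ribosomal protein genes had a median of 0.00, with 2 lower at an unadjusted p under 0.05.

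Clock genes were lower in value in 12 of 16, where 52.9% of all clusters were higher by value. Their median was -0.25, and 4 were lower and 0 higher at an unadjusted p under 0.05 (backgrounds 3.69% and 3.42%). NR1D1, the repressor REV-ERB alpha, had 9.05, 9.76 and 11.04 in High Gain against 10.26, 11.06 and 11.99 in Low Gain cows, and H6 was the High Gain cow furthest into the Low Gain range. The difference was -1.17 (standard error 0.37, limma adjusted p = 0.572) at ad libitum and -0.88 (standard error 0.70) at restriction. DBP, a transcription factor of the clock output, had -0.72 at ad libitum and -0.82 at restriction. Sampling ran from morning to early afternoon, the time of each biopsy was not given, and its part in these values was not tested.

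Immediate early genes, which handling and sampling can induce, were split. Of 28, 4 were higher and 4 lower at an unadjusted p under 0.05 (backgrounds 3.42% and 3.69%). By value 9 were higher and 19 lower, and the differences ran between -1.12 and 0.66. The genes given here are lower ones. KLF6, a zinc-finger factor, had 10.85, 10.96 and 11.91 in High Gain against 11.52, 11.91 and 11.998 in Low Gain cows, where H2 stood far above its group. The difference was -0.77 (standard error 0.17, limma adjusted p = 0.386), and without H2 it was -0.93 (limma adjusted p = 0.0318). H2 lay toward the Low Gain values, so that leaving it out widens the difference. Each cow was left out in turn, and no other of these fits passed any cluster. PHLDA1 had -1.12 at ad libitum and 0.84 at restriction, and MYADM, a myeloid-associated membrane protein outside that list, -1.26 at ad libitum and 0.97 at restriction.

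Of 24 chemokine genes, 4 were lower and 0 higher at an unadjusted p under 0.05 (backgrounds 3.69% and 3.42%), with a median of -0.03. Beside CXCL3 these were CCL14 at -0.94, CCL16 at -0.53 and CXCL16 at -0.33. Of 21 interferon-stimulated genes, 5 were higher and 0 lower at that p (backgrounds 3.42% and 3.69%). Among them were IFI27 at 0.68, MX1, an antiviral GTPase, at 0.66 and the guanylate-binding protein GBP4 at 0.63. The lists of T and NK cells, B and plasma cells, neutrophils, keratinocytes, skeletal muscle, erythroid and Schwann cells held 0 genes at an unadjusted p under 0.05. With 5 to 15 genes each and a background of 7.11%, a count of 0 says little about these cells. Of 5 mast cell markers, 3 were higher and 2 lower by value, with a median of 0.05. KIT, the stem cell factor receptor, was the 1 lower at an unadjusted p under 0.05 (background 3.69%), at -1.04, and 0 were higher. CPA3 and HDC, of the same list, had 0.07 and 0.14. Of 15 heat shock genes, 1 was higher and 2 lower at an unadjusted p under 0.05 (backgrounds 3.42% and 3.69%). The higher was the co-chaperone DNAJB1 at 0.72, and the lower were HSPA12A and the small heat shock protein HSPB1 at -0.53. A cluster of HSPA1A, an Hsp70 gene, was not counted in this list, because the annotation repeats its symbol. Named after its values were seen, it was also higher in High Gain, at 1.41 (standard error 0.48, limma adjusted p = 0.601).

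The clusters with the larger differences were in part shared with restriction. Of the 44 higher at an unadjusted p under 0.05 with a fold over 2, 34 were also higher by value at restriction, and of the 31 lower, 20 were also lower. Over all clusters, 50.9% had the same sign at both biopsies. Of the 75, 30 had an unadjusted p under 0.05 for the change between the biopsies, where 9.45% of all clusters did. The same 12 ad libitum arrays enter both sides of that last count.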

How the data were processed

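Biopsies of 12 cows were measured on Bovine 1.1ST arrays. The authors made the deposited log2 values in Affymetrix Expression Console (GC count normalization, signal space transformation, RMA) and ran tests in Transcriptome Analysis Console, per the labels and the study's methods. Versions and genome build are not given in the sources used here, and the number of arrays limits the precision. RNA quality per array was not used. Of 26773 clusters, 1776 with identifiers below the lowest named one were left out. Of the 24997 tested, 18790 carried 1 gene symbol, 385 several and 5822 none, from the platform annotation. Of those with 1 symbol, 18003 matched RefSeq by identifier, and the others keep the annotation's name. Sequences were not printed, since none were at hand.

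The 12 ad libitum arrays were compared between gain groups by the moderated two-sided test of limma 3.58.1 (R 4.3.3), and the restriction arrays in the same way. Benjamini-Hochberg adjustment ran over every cluster tested. The change between the biopsies was fitted on all 24 arrays with the cow as a random block (correlation 0.108). Both arrays of a cow come from 1 animal, as the titles say. Their deviations from the group means correlated with a median of 0.19 in High Gain and 0.10 in Low Gain cows, against -0.05 and -0.02 for different cows. The fits were tested on simulated data.

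Genes in 33 lists were each read by their brightest cluster. Genes with no cluster of their own were left out, so that 60 of 63 mitosis and 26 of 27 endothelial genes were measured. Lists are described by counts and medians, with no test. Named genes were drawn from the 12 smallest p in each direction among single-gene clusters past an unadjusted p of 0.05 and a fold over 2, the 3 smallest p of each list, the first markers of each cell type, MDGA2, core histone clusters and some genes named after their values were seen. Not every gene of these rules is shown, and ADIPOQ, LEP, RRM1 and BRCA1 are among those left out. Those named after their values were seen are marked as such or given within the account of their list, with COL1A1, COL1A2, VWF, S1PR1, JAM2 and ACACA among them. The list members RRM2, UHRF1, MCM2, MX1, CCL16, PRELP and COL15A1 were also named outside the rules, with their values known. The members and lists were chosen with earlier results of these data known. Alternatives were all 24 arrays in 1 fit with and without the cow as a block, an unmoderated test, other scalings, filters on dim clusters and on the end of the scale, a trended and robust prior, array weights, all clusters of the table, another fold threshold, averaging the clusters of each gene, and each cow left out.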

Additional observations from a re-analysis of the deposited data

Results flagged for a closer look

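Within groups of 6 cows, 56 genes described above were checked in both gain groups at ad libitum feeding for a cow set far apart from the others, by Dixon's test. Of 112 groups checked, 5 were flagged, and chance alone flags about 1 in 20. KLF6 was flagged in both groups. H2 had a signal of 11.91 against 10.85 to 11.07 in the other High Gain cows, and L3 had 11.52 against 11.89 to 11.998 in the other Low Gain cows. CXCL3 was 8.20 in H3 against 6.88 to 7.25 in the other High Gain cows. In Low Gain cows, COL3A1 was 18.63 in L3 against 16.57 to 17.15 in the others, and H2BC3 was 5.49 in L5 against 4.84 to 5.05.

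The gain difference of 2 genes differed between the biopsies by the test of that change itself over all 24 arrays. It changed by -2.72 for MIR145 and by -1.49 for JAM2, ad libitum minus restriction (limma adjusted p = 0.036 for both, n = 6 cows in each group). Both genes had a lower value in High Gain cows at ad libitum and a higher value at restriction. Without the cow as a block, 0 clusters passed for this change.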

How the results depend on the processing

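With all 24 arrays in 1 fit, 2 clusters passed an adjusted p under 0.05, SCAP and the shared H2B cluster, in place of 0. Both passed without the replicate block (limma adjusted p = 0.0255 for each) and with the cow as a replicate block (limma adjusted p = 0.0226 for each). That block fit gave 1 cluster at restriction in place of 0, and the change between the biopsies gave 0 clusters without a replicate block in place of 2. No paired analysis was possible between High Gain and Low Gain because they are different cows. With the clusters dimmer than the median left out, 416 clusters were higher at an unadjusted p under 0.05 in place of 854, 10 mitosis genes in place of 32 and 3 core histones in place of 5, since fewer clusters were tested. The medians of mast cells, erythroid cells and keratinocytes were then -0.45, -0.91 and 0.0909. With every cluster tested, those left out included, 62 were lower past a fold of 2, and past a fold of 1.5 there were 163 higher and 220 lower.

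With each cow left out in turn, clusters past the adjusted p numbered 0 to 1 (1, KLF6, without H2), those higher past a fold of 2 numbered 34 to 72 (72 without H4), and those lower 25 to 58 (58 without L3, 47 without H4 and 47 without L6). Matrix genes higher at an unadjusted p under 0.05 numbered 7 to 16. The causes were not tested. With 0 clusters past the adjusted p at ad libitum in the main fit, there was no passed result whose direction could reverse there. For the change between the biopsies, only the number of clusters passed was followed under other settings, not the values of JAM2 and MIR145. Some list medians changed sign, as for skeletal muscle, with 0.12 over all cows and -0.13 without H3.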
